A study of Mus musculus with 8 samples.

Results

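The genes described here encode the UDP-glucuronosyltransferases (UGT), the cytosolic sulfotransferases (SULT), the cytosolic and mitochondrial glutathione transferases (GST) and the microsomal glutathione transferases (MGST). They were chosen by symbol alone, as all genes named Ugt1 to Ugt3, Sult1 to Sult6, Gst with a class letter and number, or Mgst, that had a probe set annotated to exactly 1 symbol. This gave 52 members among 22180 genes, namely 10 UGT, 21 SULT, 18 GST and 3 MGST genes, and each was read by 1 probe set. RNA came from AML12 cells, a line of mouse hepatocytes, in 4 cultures with the VWA8 gene deleted by CRISPR/Cas9 and 4 wild-type cultures, each differentiated separately and hybridised to an Affymetrix mouse array. Both genotypes were grown in DMEM/F12 medium with 10% serum, penicillin and streptomycin, insulin and transferrin at 0.005 mg/ml each, selenium at 5 ng/ml and the synthetic glucocorticoid dexamethasone at 40 ng/ml. VWA8 is an AAA+ ATPase of mitochondria. How many clones the knockout cultures came from is not stated here, and clonal differences cannot be told apart from an effect of the deletion.

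These enzymes attach a polar group to drugs, steroids, bile acids, bilirubin and reactive products of metabolism so that they can leave the hepatocyte. UGTs sit in the endoplasmic reticulum and transfer glucuronic acid from UDP-glucuronic acid, SULTs transfer sulfate from the activated donor PAPS, and GSTs add glutathione to electrophiles. In adult mouse liver many of them are abundant and are controlled by nuclear receptors, by the aryl hydrocarbon receptor and by the oxidant sensor NRF2.

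All values are the deposited log2 signals, and a change is the knockout mean minus the wild-type mean on that scale. The medians of the 8 arrays lay between 4.27 and 4.33, arrays of 1 genotype correlated at 0.985 to 0.989 over all probe sets, and arrays of different genotypes at 0.978 to 0.984. The number of arrays limits the precision of every value. The deleted gene was checked first. Vwa8 averaged 5.18 ± 0.116 in knockout cells and 8.95 ± 0.0414 in wild-type cells (SD, n = 4 each), with p = 0.0286 in a two-sided exact permutation test, the smallest p that 4 against 4 arrays allow. In RNA from a whole culture, fewer cells that express a gene and less of its RNA per cell cannot be told apart.

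Conjugating enzymes that gave a clear signal were mostly higher in the knockout. Of the 52 members, 18 were higher and 3 lower at an adjusted p under 0.05 in limma, and 31 did not pass. The share called was 40.4%, beside 20.9% of all genes, and the share called higher was 34.6%, beside 10.4% of all genes. The median change over all members was 0.16, against -0.003 over all genes. The 4 knockout arrays all lay above the 4 wild-type arrays in 20 members and all below them in 3, beside 26.1% of all genes whose groups did not overlap in either direction and 12.9% with the knockout arrays on top. Signal and call went together. Among the 22 members brighter than the median gene, whose mean signal was 4.57, 16 were higher and 3 lower, while in the corresponding brighter part of all genes 18.6% were higher, 18.3% lower and 37% called in either direction. The groups did not overlap in 19 of these 22 members, 16 with the knockout on top, beside 46.4% of the brighter genes in either direction and 23.2% with the knockout on top. A call together with a change of at least 0.5 was reached by 15 members and by 7.64% of all genes. Of the 30 dimmer members only Gstt2 and Gstm6 passed. No background measure was used, and whether the dim members are expressed at all was not tested.

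**Figure D1:**
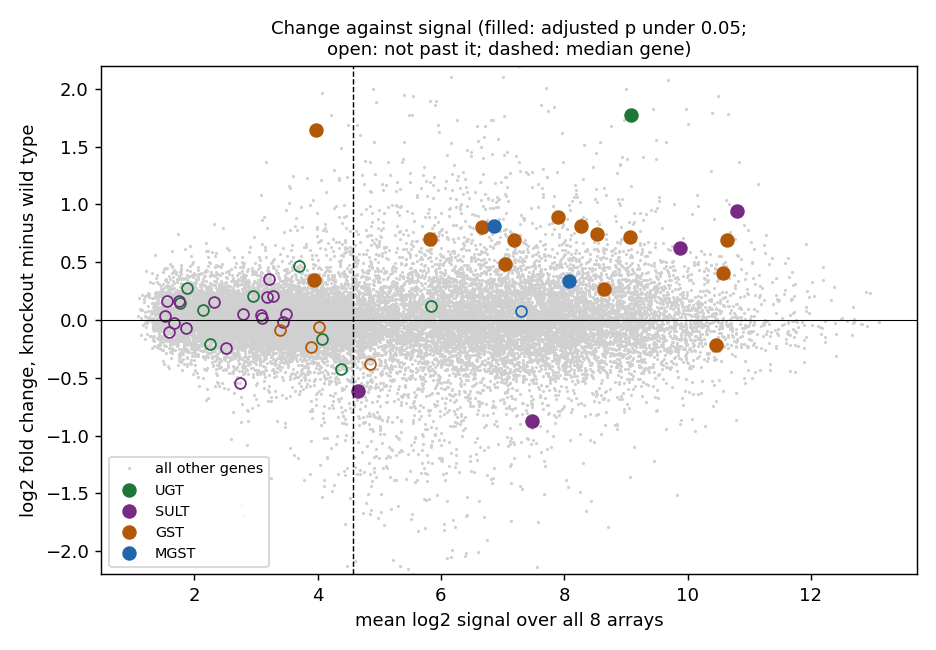
Change of each gene (log2 fold change, knockout minus wild type) against its mean log2 signal over all 8 arrays. Large coloured circles are the 52 members by family, filled where the adjusted p was under 0.05 and open where it was not, small grey points are all other genes, and the dashed line marks the median gene at 4.57. Filled circles lie almost all to the right of that line and mostly above 0, and 28 of the 30 members left of it are open. A few other genes with larger changes lie outside the vertical range.

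Most of the called members were glutathione transferases. In the GST family 13 of 18 were higher and 1 lower (77.8% called, median change 0.59). In the MGST family 2 of 3 were higher and none lower (median 0.33). In the SULT family 2 of 21 were higher and 2 lower (median 0.04), and 1 of 10 UGT genes was higher and none lower (median 0.13). Whether these shares differ between families was not tested. Their brightness differs too, since 13 GST, 3 MGST, 4 SULT and 2 UGT members were brighter than the median gene. No Ugt1a gene is among the UGT members, because the Ugt1a probe sets list several symbols. Both probe sets with only Ugt1a symbols were called higher, at 0.55 ± 0.0926 and 0.65 ± 0.158.

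**Figure D2:**
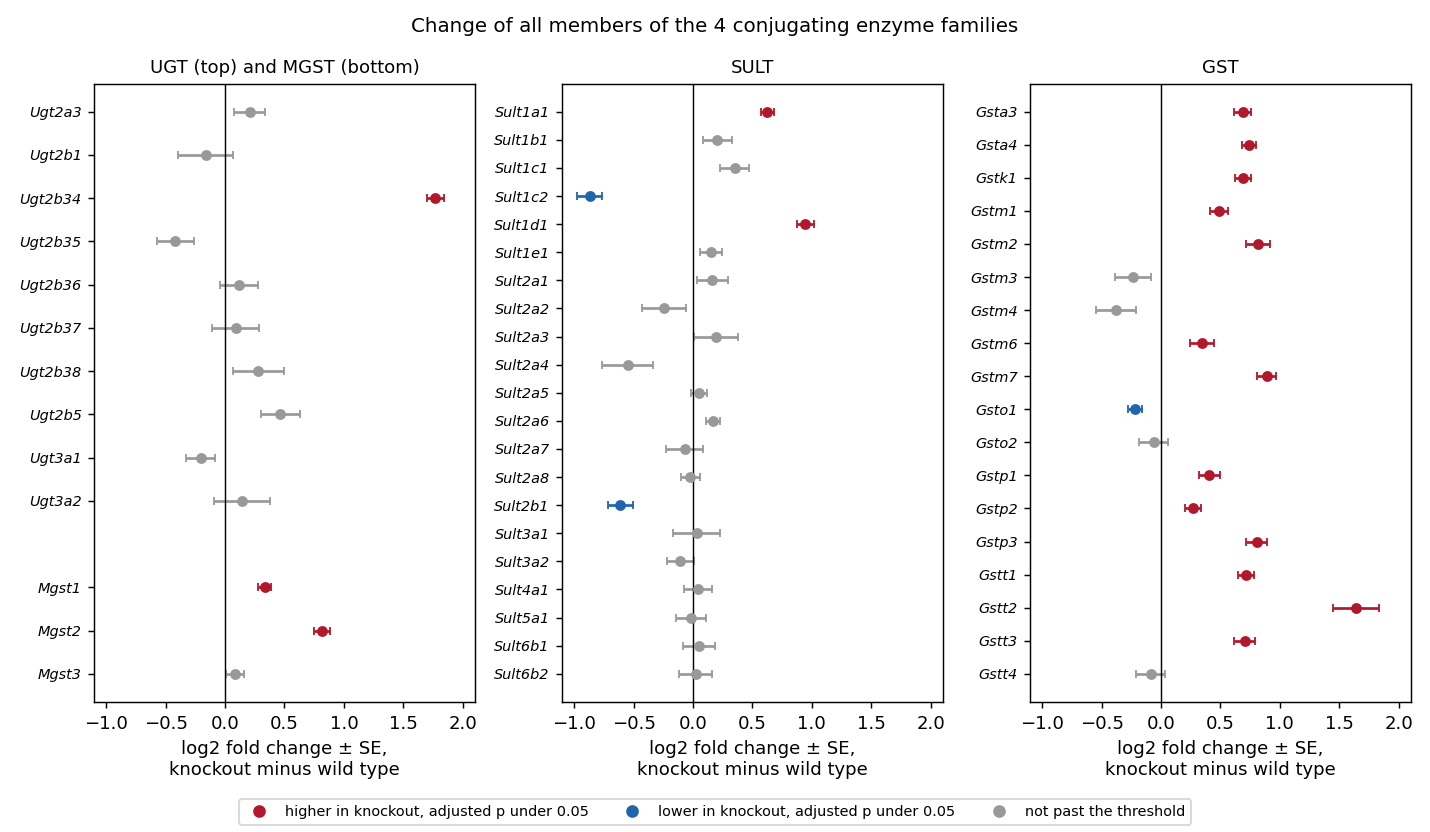
Log2 fold change (knockout minus wild type) with its standard error for all 52 members, in 3 panels, UGT above MGST on the left, SULT in the middle and GST on the right, from 4 arrays per genotype. Red points were higher and blue points lower in the knockout at an adjusted p under 0.05, and grey points did not pass. The GST panel is mostly red, while most of the UGT and SULT points are grey and near 0.

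Ugt2b34 had the largest change of all members. It belongs to the UGT2B enzymes, which glucuronidate steroids, bile acids and many drugs. Its probe set, 17449313 (chromosome 5 in assembly GRCm38.p6), read 9.88, 9.96, 9.92 and 10.10 in the knockout arrays, against 8.10, 8.30, 8.21 and 8.17 in the wild-type arrays. All knockout arrays were well above all wild-type arrays, with little spread in either genotype. The difference was 1.77 ± 0.0710 (SE), a 3.41-fold rise (adjusted p = 1.27e-06 in limma). The 250 bases before its start are shown because they carry the promoter of the member that moved most (GRCm38.p6, chr5:86906938-86907187, minus strand, sequence from RefSeq).
Ugt2b34: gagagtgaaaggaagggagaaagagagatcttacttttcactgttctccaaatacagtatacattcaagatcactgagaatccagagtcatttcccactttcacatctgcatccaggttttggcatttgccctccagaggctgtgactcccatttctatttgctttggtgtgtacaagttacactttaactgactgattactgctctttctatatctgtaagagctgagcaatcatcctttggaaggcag
None of 4 short motifs searched on both strands, which are spelled out with the promoter counts further on, occurred in it, and for that reason it is printed without capitals.

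The other 9 UGT genes did not pass, with changes between -0.42 and 0.46. They were Ugt2a3, Ugt2b1, Ugt2b35, Ugt2b36, Ugt2b37, Ugt2b38, Ugt2b5, Ugt3a1 and Ugt3a2, and of these only Ugt2b36 was brighter than the median gene. Ugt2b36 ran from 5.65 to 6.15 in knockout arrays and from 5.40 to 6.09 in wild-type arrays, so its groups overlapped. The highest of the changes that did not pass was that of Ugt2b5, at 0.46 ± 0.162 (adjusted p = 0.0778 in limma), and the lowest was that of Ugt2b35, at -0.42 ± 0.156 (adjusted p = 0.0977). Neither of these is settled by the data, since Ugt2b5 passed in 2 of 14 alternatives and Ugt2b35 in 2 of 14.

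Among the sulfotransferases, Sult1d1 and Sult1a1 were higher. Sult1d1, a mouse enzyme that sulfates catecholamines, read 11.28, 11.28, 11.17 and 11.38 in knockout arrays and 10.30, 10.25, 10.46 and 10.31 in wild-type arrays. The groups were apart on every array, by 0.95 ± 0.0700 (SE), a 1.93-fold rise (adjusted p = 2.67e-05 in limma). Sult1a1, the sulfotransferase of simple phenols, read 10.25, 10.22, 10.17 and 10.14 in knockout arrays and 9.55, 9.57, 9.57 and 9.58 in wild-type arrays. Its wild-type arrays were the most alike of any called member (SD 0.0155), and the rise of 0.63 ± 0.0524 was 1.54-fold (adjusted p = 5.34e-05). The promoter of Sult1d1 is shown as that of the sulfotransferase with the largest rise (GRCm38.p6, chr5:87569007-87569256, minus strand, 250 bases before the start, from RefSeq). Its capitals mark GTTAAT, a core recognised by the hepatocyte factor HNF1, from base 79 to base 74 before the start, and CACGC, the reverse complement of the core GCGTG of the aryl hydrocarbon receptor's element, from base 47 to base 43.
Sult1d1: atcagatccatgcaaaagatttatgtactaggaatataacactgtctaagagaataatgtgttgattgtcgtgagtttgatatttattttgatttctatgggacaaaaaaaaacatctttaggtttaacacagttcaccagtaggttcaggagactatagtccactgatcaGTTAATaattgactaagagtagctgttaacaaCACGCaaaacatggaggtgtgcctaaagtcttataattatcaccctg

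Sult1c2 and Sult2b1 went the other way. Sult1c2, another phenol-type enzyme of the SULT1 group, read 6.95, 6.94, 6.96 and 7.31 in knockout arrays and 7.84, 7.76, 8.09 and 7.96 in wild-type arrays. The fourth knockout array stood apart from the other 3 and was still below every wild-type array. The fall was -0.87 ± 0.107, or 1.83-fold (adjusted p = 0.00048 in limma). Sult2b1, which sulfates cholesterol and pregnenolone, read 4.52, 4.08, 4.46 and 4.36 in knockout arrays and 4.85, 4.88, 5.04 and 5.11 in wild-type arrays. These signals were near that of the median gene, and the fall of -0.61 ± 0.108 was 1.53-fold (adjusted p = 0.0037). The promoter of Sult1c2, the member with the largest fall, held none of the 4 motifs in its 250 bases (GRCm38.p6, chr17:53845959-53846208, minus strand, from RefSeq).
Sult1c2: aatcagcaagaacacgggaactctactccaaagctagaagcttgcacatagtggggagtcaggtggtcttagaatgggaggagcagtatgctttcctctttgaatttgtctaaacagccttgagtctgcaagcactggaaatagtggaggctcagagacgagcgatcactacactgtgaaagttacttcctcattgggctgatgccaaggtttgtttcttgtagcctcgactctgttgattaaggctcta

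The other 17 sulfotransferases did not pass, and all were dimmer than the median gene. They comprised Sult1b1, Sult1c1, the estrogen sulfotransferase Sult1e1, the 8 Sult2a genes whose products sulfate hydroxysteroids and bile acids, and Sult3a1, Sult3a2, Sult4a1, Sult5a1, Sult6b1 and Sult6b2. Changes of the 8 Sult2a genes ran from -0.55 (Sult2a4, adjusted p = 0.115) to 0.20, around a median of 0.01. Sult2a genes are close copies of each other, as are several Ugt2b, Gstm and Gstp genes, and how far their probe sets share targets was not tested. The groups of Sult1c1 did not overlap, at 3.13 to 3.71 in knockout arrays and 3.00 to 3.11 in wild-type arrays, but its change of 0.35 ± 0.121 missed the threshold (adjusted p = 0.0754). Sult2a6 was also apart, at 1.77 to 1.90 in knockout arrays and 1.56 to 1.74 in wild-type arrays (adjusted p = 0.0942).

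Both alpha class members, the kappa class member and all 3 pi class members rose, while 3 probe sets shared by other alpha class genes, which are not members, did not pass. Of the alpha class, whose members handle products of lipid peroxidation and bind hydrophobic ligands, Gsta3 read 11.03, 10.99, 10.86 and 11.03 in knockout arrays and 10.28, 10.34, 10.15 and 10.37 in wild-type arrays. Gsta4, which conjugates the lipid aldehyde 4-hydroxynonenal, read 8.99, 8.86, 8.82 and 8.93 in knockout arrays and 8.11, 8.18, 8.20 and 8.14 in wild-type arrays. Both were higher on every knockout array, by 0.69 ± 0.0710 for Gsta3 (1.61-fold) and 0.74 ± 0.0598 for Gsta4 (1.67-fold). Gstk1, a kappa class enzyme of mitochondria and peroxisomes, read 7.58, 7.50, 7.57 and 7.48 in knockout arrays and 6.82, 6.83, 6.97 and 6.74 in wild-type arrays, a rise of 0.69 ± 0.0647. The adjusted p of these 3 genes was at most 0.000174 in limma.

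Of the theta class, which acts on small halogenated compounds and sulfate esters, 3 of 4 genes rose. Gstt2 read 4.84, 4.86, 4.56 and 4.93 in knockout arrays, against 3.49, 2.89, 2.71 and 3.54 in wild-type arrays. Its wild-type signals were below that of the median gene and scattered (SD 0.421). The change of 1.64 ± 0.192 is thus set against a probe set not shown to be above background in wild-type cells, and no fold is given. Gstt1 read 9.46, 9.51, 9.41 and 9.34 in knockout arrays and 8.76, 8.79, 8.73 and 8.59 in wild-type arrays. Gstt3 read 6.16, 6.39, 6.09 and 6.04 in knockout arrays and 5.56, 5.50, 5.42 and 5.37 in wild-type arrays. The rises of these neighbours were alike in size, at 0.71 ± 0.0669 for Gstt1 and 0.70 ± 0.0871 for Gstt3, while Gstt4 was dim and did not pass (adjusted p = 0.695). The 3 that rose had an adjusted p of at most 0.000486 in limma.

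In the mu class, which detoxifies epoxides and quinones, 4 of 6 genes were higher. Gstm7 read 8.36, 8.44, 8.23 and 8.35 in knockout arrays and 7.49, 7.27, 7.56 and 7.50 in wild-type arrays. Gstm2 read 8.83, 8.72, 8.44 and 8.72 in knockout arrays and 8.04, 7.85, 7.77 and 7.79 in wild-type arrays. Neither gene's groups overlapped, and the rises were 0.89 ± 0.0796 for Gstm7 and 0.81 ± 0.0991 for Gstm2 (adjusted p = 7.57e-05 and 0.000446 in limma). Gstm1 rose by 0.49 ± 0.0731 (adjusted p = 0.00145). Gstm6 was dim, at 4.12 ± 0.0954 in knockout cells and 3.77 ± 0.196 in wild-type cells (SD, n = 4 each), and its call at adjusted p = 0.0417 did not hold in 7 of 14 alternatives. Gstm3 and Gstm4 did not pass, at -0.24 ± 0.153 and -0.38 ± 0.168 (adjusted p = 0.352 and 0.163).

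All 3 pi class genes were higher. Gstp3 read 7.23, 7.10, 7.11 and 6.85 in knockout arrays and 6.35, 6.24, 6.29 and 6.19 in wild-type arrays, a rise of 0.80 ± 0.0863 (adjusted p = 0.000218 in limma). Gstp1, the main pi class enzyme, rose by 0.41 ± 0.0885 (adjusted p = 0.0107), and Gstp2, its near copy, by 0.27 ± 0.0684 (adjusted p = 0.0213). Gstp2 missed the threshold in 5 of 15 alternatives, among them 4 that left out an array. Gsto1 was the only GST gene that was lower. It encodes an omega class enzyme that reduces dehydroascorbate and mixed disulfides, and it averaged 10.35 ± 0.0290 in knockout cells and 10.56 ± 0.0766 in wild-type cells (SD, n = 4 each). That difference of -0.22 ± 0.0585, 1.16-fold, passed at adjusted p = 0.0292 and missed it in 7 of 15 alternatives, 6 of them with an array left out. Gsto2 was dim and did not pass (adjusted p = 0.796). The promoter of Gsto1, the only called glutathione transferase that was lower, held none of the 4 motifs (GRCm38.p6, chr19:47854723-47854972, plus strand, 250 bases before the start, from RefSeq).
Gsto1: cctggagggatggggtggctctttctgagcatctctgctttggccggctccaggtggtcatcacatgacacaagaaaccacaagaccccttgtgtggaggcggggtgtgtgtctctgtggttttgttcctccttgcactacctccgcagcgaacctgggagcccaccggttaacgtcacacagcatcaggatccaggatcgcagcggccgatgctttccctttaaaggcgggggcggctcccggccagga

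The membrane-bound enzymes rose in 2 of 3 cases. Mgst2, which makes leukotriene C4 and transfers glutathione to lipid electrophiles, read 7.33, 7.24, 7.28 and 7.23 in knockout arrays and 6.61, 6.39, 6.38 and 6.44 in wild-type arrays. Its knockout arrays lay close together and above every wild-type array, with a rise of 0.81 ± 0.0674 or 1.76-fold (adjusted p = 5.04e-05 in limma). Mgst1, found in the endoplasmic reticulum and the outer mitochondrial membrane, averaged 8.25 ± 0.0510 in knockout cells and 7.92 ± 0.0236 in wild-type cells (SD, n = 4 each; change 0.33 ± 0.0530, adjusted p = 0.00199). Mgst3 ran from 7.27 to 7.50 in knockout arrays and from 7.18 to 7.37 in wild-type arrays and did not pass (0.08 ± 0.0747, adjusted p = 0.534). The promoter of Mgst2, which had the largest rise of this family, held none of the 4 motifs (GRCm38.p6, chr3:51660929-51661178, plus strand, 250 bases before the start, from RefSeq).
Mgst2: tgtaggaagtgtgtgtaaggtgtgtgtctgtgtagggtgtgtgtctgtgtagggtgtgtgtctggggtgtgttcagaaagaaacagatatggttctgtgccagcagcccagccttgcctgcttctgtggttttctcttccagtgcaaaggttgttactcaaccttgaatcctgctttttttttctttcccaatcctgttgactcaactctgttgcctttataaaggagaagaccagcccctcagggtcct

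**Figure D3:**
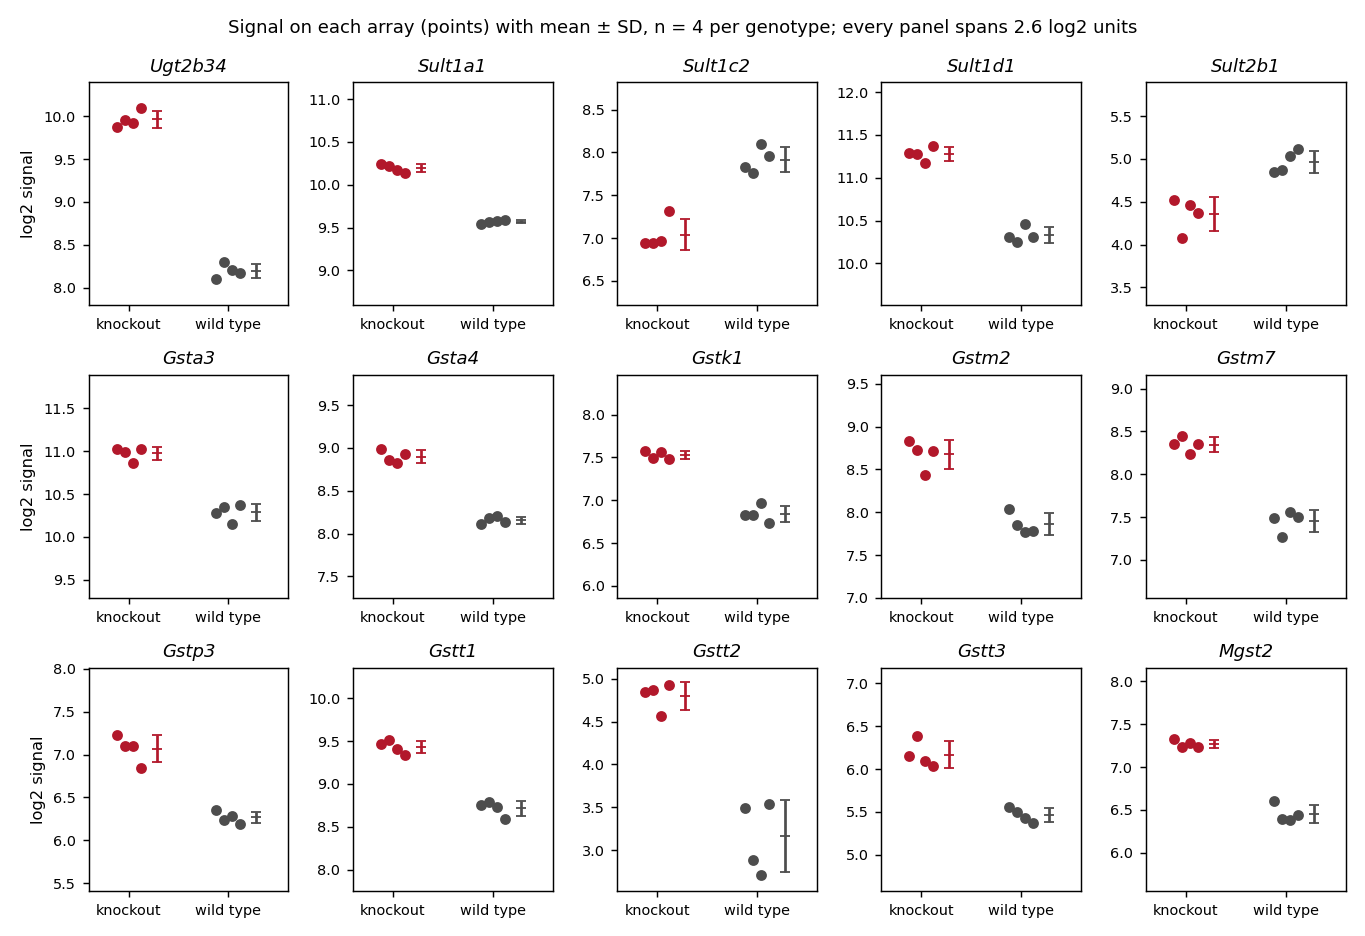
Log2 signal on each array for the 15 members that passed with a change of at least 0.5, knockout arrays in red on the left and wild-type arrays in grey on the right of each panel, with mean ± SD (n = 4 per genotype). Every panel spans the same number of log2 units, so distances can be compared between genes while the levels cannot. In no panel do the 2 groups overlap, and Sult1c2 and Sult2b1 are the panels in which the knockout lies below.

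Neighbouring genes of 1 family did not all move together. On chromosome 5 the Ugt2 genes are followed by Sult1b1, Sult1d1 and Sult1e1, and of the 11 members there only Ugt2b34, the first in order, and Sult1d1, the tenth, passed. Ugt2b1, next to Ugt2b34, stood at -0.16 ± 0.231 (adjusted p = 0.704 in limma). Among the Gstm genes of chromosome 3, Gstm3 and Gstm4 did not pass and lay between or beside Gstm6, Gstm2 and Gstm1, which rose. Gstt4 did not pass and lies between Gstt1 and Gstt2, which rose. Regional shifts were measured as the median change of 60 neighbours outside the families, 30 to the left and 30 to the right. That median was 0.13 around the Gstm genes, -0.09 around the Gstt genes, -0.11 around the Sult2a genes, 0.05 around the Gstp genes and -0.0002 around the Ugt2 genes. Less the neighbours, the changes of Gstm7 and Gstt1 were 0.76 and 0.80, and those of Gstm6 and Gstp2 fell below the threshold at 0.21 and 0.22 (adjusted p = 0.202 and 0.0525).

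**Figure D4:**
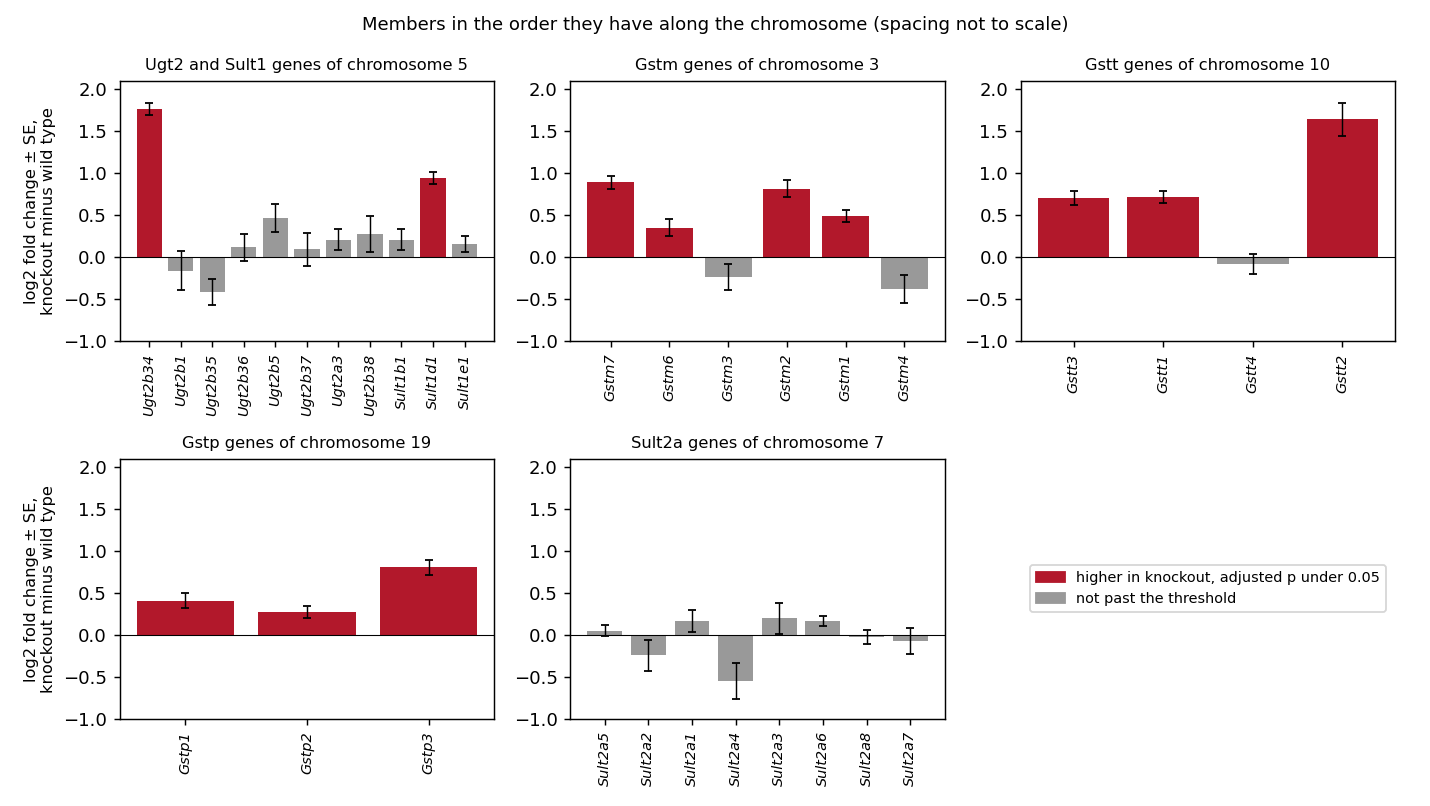
Log2 fold change (knockout minus wild type, bars, with standard error, 4 arrays per genotype) of members in 5 gene clusters, in their order along the chromosome with spacing not to scale. Red bars passed an adjusted p of 0.05 and grey bars did not. Ugt2b34 and Sult1d1 stand alone among grey bars, and no Sult2a bar is red.

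Promoters of the members were searched for 4 short motifs in the 250 bases before each annotated start. These were GTTAAT (HNF1), CAAAGTCCA (HNF4), TGACNNNGC (the antioxidant response element that NRF2 binds) and GCGTG (the aryl hydrocarbon receptor), each on both strands, with overlaps allowed and N for any base. RefSeq promoters were found for 45 of 52 members, and Gstt2 and Gsta4 were not among them. GTTAAT occurred in 3 of 16 members that rose, in none of the 3 that fell and in 7 of 26 that did not pass, against 7.49% of 27025 genes. TGACNNNGC occurred in 3 of 16 that rose, in none of the 3 that fell and in none of 26 that did not pass, against 11.5% of all genes. GCGTG occurred in 4 of 16, 1 of 3 and 2 of 26, against 30.9%, and CAAAGTCCA in no member, against 0.451%. A match is a description of the letters and not a binding site. The 3 rising genes with the antioxidant element core are shown with 25 bases on each side and the match in capitals, Gsta3 at chr1:21240439-21240497 on the plus strand, Gstm7 at chr3:107931710-107931768 on the minus strand and Mgst1 at chr6:138140446-138140504 on the plus strand (GRCm38.p6, from RefSeq). In Mgst1 the match is on the opposite strand.
Gsta3: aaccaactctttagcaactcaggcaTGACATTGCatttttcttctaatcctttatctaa
Gstm7: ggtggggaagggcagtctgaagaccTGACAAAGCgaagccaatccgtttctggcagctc
Mgst1: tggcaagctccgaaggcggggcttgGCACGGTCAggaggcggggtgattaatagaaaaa

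Genes that supply the conjugated groups were partly higher. Most genes on these lists were brighter than the median gene, so their counts stand beside the 37% of such genes that were called, 18.6% higher and 18.3% lower. Of 4 genes listed for UDP-glucuronic acid supply, 3 rose, led by Ugp2, which makes UDP-glucose, at 0.79 ± 0.0725. The others were the nucleotide sugar transporter Slc35d1 at 0.42 ± 0.0674 and Slc35b1, of the same gene family, at 0.40 ± 0.0674. Whether Slc35b1 has a part in this supply was not tested. Ugdh, which oxidises UDP-glucose to UDP-glucuronic acid, stood at 0.16 ± 0.0502 (adjusted p = 0.0511 in limma; past the threshold in 4 of 15 alternatives). Of 8 genes for PAPS supply and recycling, 3 rose and none fell, or 37.5% called, beside 20.9% of all genes. Among the 7 of this list brighter than the median gene 28.6% were called, below the 37% of all such genes. Those that rose were the sulfate transporter Slc26a1 at 0.89 ± 0.0851, the PAPS synthase Papss1 at 0.46 ± 0.0616 and the nucleotidase Bpnt1 at 0.36 ± 0.0537. Slc26a1 was dimmer than the median gene, with a mean of 3.99 in wild-type cells. The other synthase, Papss2, stood at -0.02 ± 0.0843 (adjusted p = 0.894). Of 11 measured genes of glutathione synthesis and recycling, 6 rose and 1 fell. The 6 include Chac1, whose product breaks glutathione down, and its call (adjusted p = 0.0389 in limma) held in 9 of 15 alternatives. The gene that fell was Gsr, the glutathione reductase, at -0.37 ± 0.0560 (adjusted p = 0.00157 in limma). Cth and Cbs, which make cysteine from homocysteine, rose by 1.34 ± 0.0572 and 1.22 ± 0.0611, and Gclm, the modifier subunit of the first enzyme of glutathione synthesis, by 0.44 ± 0.0522. Ggct, which breaks down gamma-glutamyl amino acids in the glutathione cycle, rose by 0.48 ± 0.0691. Gclc, the catalytic subunit, stood at -0.01 ± 0.0497 (adjusted p = 0.913).

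Listed phase II enzymes outside the 4 families were higher where they passed. Of 16 measured, 9 rose and none fell, or 56.2% called beside 20.9% of all genes. Among the 10 brighter than the median gene 70% were called, beside 37% of all such genes. Of the 9, Acsm1 and the epoxide hydrolases Ephx1 and Ephx2 are not themselves conjugating enzymes. Ephx1 passed narrowly (adjusted p = 0.0483 in limma) and in only 3 of 15 alternatives. The 9 also included the glycine acyltransferase Glyat at 1.90 ± 0.122 and the histamine methyltransferase Hnmt at 1.69 ± 0.136. The indolethylamine methyltransferase Inmt and the arsenic methyltransferase As3mt rose by 1.42 ± 0.0741 and 0.85 ± 0.0822. Hnmt averaged 3.65 in wild-type cells, below the median gene at 4.57, and was not shown to be above background there. Of 15 listed export and uptake transporters, 3 rose and 3 fell, or 40% called beside 20.9% of all genes. All 6 were among the 9 transporters brighter than the median gene. The listed uptake carriers, the Slco genes and Slc22a7, were all dimmer and did not pass. Whether Abcb4, 1 of the 3 that rose, carries conjugates was not tested. Abcc2, which exports glucuronides and glutathione conjugates into bile, rose by 0.81 ± 0.0972 and Abcc6 by 0.97 ± 0.0997, while Abcc4, an exporter of the basolateral membrane, stood at -0.80 ± 0.0669 and Abcg2, an exporter of sulfates, at -0.54 ± 0.0850. Among 8 measured genes for the removal of conjugates, 3 rose and 1 fell, or 50% called beside 20.9% of all genes. Of the 7 brighter than the median gene 57.1% were called, beside 37% of all such genes. Gusb, the beta-glucuronidase that splits glucuronides, was lower, at -0.92 ± 0.0591. Those that rose were the arylsulfatases Arsb and Arsg, at 0.47 ± 0.0775 and 0.45 ± 0.104, and the aminoacylase Acy3, which removes the acetyl group of mercapturates, at 0.34 ± 0.0545. Whether Arsb and Arsg act on the sulfates that SULTs make was not tested, and the listed sulfatase Sts was not measured. The rise of Arsb was 0.16 (adjusted p = 0.215) when its probe sets were averaged. Apart from Chac1 and Ephx1, every supply, phase II, transport and removal gene named here as called had an adjusted p of at most 0.0138 in limma.

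Of 24 measured regulators of conjugation genes, 8 rose and 4 fell. All 12 were among the 22 brighter than the median gene, which makes 54.5% of these, beside 37% of all such genes. Nr1i2, which encodes the xenobiotic receptor PXR, averaged 6.88 in knockout cells and 5.54 in wild-type cells, a rise of 1.34 ± 0.0736 (adjusted p = 5.16e-06 in limma), and its partner Rxra rose by 0.76 ± 0.0678. Foxa3 rose by 0.73 ± 0.0668, while Foxa1, a related pioneer factor, stood at -0.70 ± 0.0794 (adjusted p = 9.17e-05 and 0.000303). Transcripts of Nr1i3 (the receptor CAR) and Ahr did not pass, at -0.19 ± 0.173 and -0.05 ± 0.0704. Nfe2l2 (NRF2) and its inhibitor Keap1 did not pass either, at -0.005 ± 0.0521 and -0.08 ± 0.0937. Nr1i3 averaged 3.87 in knockout cells and 4.06 in wild-type cells, below the median gene, and was not shown to be above background. Over all 86 measured genes of these lists, 35 rose and 9 fell, or 33 to 39 and 9 to 12 over the alternatives, with a median of 0.17. Of the 70 brighter than the median gene, 32 rose and 9 fell, or 58.6% called beside 37% of all genes as bright.

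**Figure D5:**
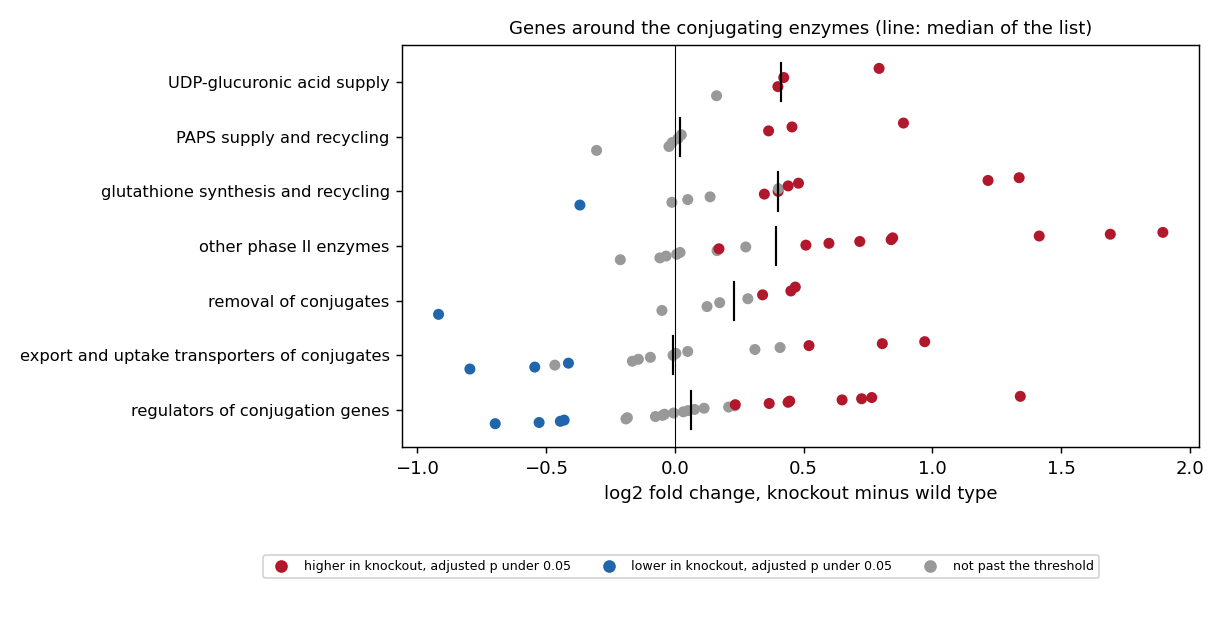
Log2 fold change (knockout minus wild type) of the genes around the conjugating enzymes, 1 row per list and 1 point per gene, with a vertical line at the median of each list. Red and blue points were higher and lower in the knockout at an adjusted p under 0.05, and grey points did not pass. Glyat and Hnmt lie furthest to the right and Gusb furthest to the left.

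Markers of differentiated hepatocytes were higher in the knockout, as were 18 of the 52 members. All 9 measured hepatocyte markers of 10 listed rose. Hnf4a is 1 of them and is also counted among the regulators that rose. All 9 were brighter than the median gene, and of all such genes 37% were called and 18.6% were higher. The summed log2 signal of these markers ran from 85.1 to 86.7 in knockout arrays and from 77.5 to 78.3 in wild-type arrays. Of 5 measured cholangiocyte markers Krt7 and Cftr were lower, at -0.52 ± 0.0835 and -0.92 ± 0.108. They were among 4 brighter than the median gene, or 50% called, beside 37% of all such genes. Krt19, Epcam and Sox9 did not pass (adjusted p = 0.146, 0.816 and 0.21 in limma), and Sox9 was higher on every knockout array. The sums ran from 30.8 to 31.5 in knockout arrays and from 32.2 to 33.0 in wild-type arrays. Krt7 and Cftr made up most of that difference. None of 7 stellate cell or fibroblast, 6 endothelial and 6 macrophage or leukocyte markers passed, and their sums overlapped between the genotypes. No marker reads 0 on this scale, and 1 stellate, no endothelial and 1 leukocyte marker were brighter than the median gene. The part that the shift in hepatocyte markers has in the changes of the members was not tested.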

How the data were processed

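Per the labels' protocols, biotin-labelled RNA made from the total RNA of 8 cultures was read on Affymetrix mouse arrays. The deposited table holds 1 log2 value per probe set and array, from 0.4366 to 13.55. That these deposited numbers are log2 follows from their range. For background correction, normalization and build the source used here gives nothing, and none was added. Of 41345 probe sets, 23521 had 1 gene symbol in the platform annotation, 1814 had several and 16010 had none listed. Where a gene had several, its brightest by mean signal was kept, which left 22180 genes, of which 21994 matched the gene table of GRCm38.p6.

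Genotypes were compared with limma 3.58.1 in R 4.3.3, genotype as the only term, with two-sided p-values adjusted by Benjamini-Hochberg over all genes at 0.05. Nothing beyond the description as separate cultures tells how independent the samples are, so p-values measure the spread between these samples. The members and lists were chosen with earlier results of these data known. All array values are given for members that passed with a change of at least 0.5. Of each further list up to 4 called genes with the smallest adjusted p were named, with Gclc, Gclm, Ugdh, Papss1, Papss2, Nr1i2, Nr1i3, Ahr, Nfe2l2 and Keap1 whatever their values. Gsr was added as the called gene of its list that fell, and all measured cholangiocyte markers were named. Acsm1, Ephx1, Ephx2, Chac1, Abcb4, Hnf4a, Slc22a7 and the Slco genes were named to qualify the counts of their lists. Alternatives were median centring, quantile normalization, a block for the replicate number, robust variances with an intensity trend, dropping the dimmest 50% of probe sets, averaging the probe sets of each gene, subtracting the change of neighbouring genes, and leaving out each array. The fit was tested on simulated data. Figures used matplotlib 3.10.9.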

Additional observations from a re-analysis of the deposited data

Results flagged for a closer look

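In 3 of 104 groups of 4 arrays, 1 array lay further from its group than the others by Dixon's criterion, which chance meets in about 1 group in 20. Sult1c2 read 7.31 on the fourth knockout array and 6.94 to 6.96 on the other 3, and its change was -0.96 without that array. Gstt4 read 3.71 on the fourth wild-type array and 3.34 to 3.37 on the others, and Sult1c1 read 3.11 on the third wild-type array and 3.00 to 3.01 on the others.

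Probe sets annotated to several symbols were outside the comparison of members, and 9 of them list a name of the 4 families. Of these, 5 were higher in the knockout at an adjusted p under 0.05 over all probe sets in limma and none lower. Both probe sets whose symbols are all forms of the Ugt1a locus, which share their last exons, were among them, 17215429 at 0.55 ± 0.0926 (SE) and 17225320 at 0.65 ± 0.158. The others were 17277592 at 0.75 ± 0.0631, which lists a zeta class GST gene beside a gene of another family, 17361081 at 0.52 ± 0.0816, with pi class genes only, and 17401610 at 0.68 ± 0.116, which lists a mu class gene beside another gene. The 4 that did not pass were 17449381 at 0.12 ± 0.131, with Ugt2a symbols, and 3 probe sets with alpha class symbols, 17519658 at -0.20 ± 0.142, 17519673 at 0.08 ± 0.0905 and 17529017 at 0.23 ± 0.159 (adjusted p = 0.684, 0.495, 0.685 and 0.457 in limma).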

How the results depend on the processing

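Of the 21 called members, 18 passed in every one of the 15 alternatives that could be fitted for them. The exceptions were Gstm6 (adjusted p up to 0.202, missed without wild-type arrays 1 or 3 or knockout arrays 2, 3 or 4), Gsto1 (up to 0.0779, missed without wild-type arrays 1 or 4 or any knockout array) and Gstp2 (up to 0.0625, missed without wild-type arrays 2 or 3 or knockout arrays 1 or 2). Another 6 members passed in at least 1 alternative, and none of these 27 changed sign. Leaving out each array gave 16 to 18 members higher and 2 to 4 lower, with 1 to 2 UGT genes higher, 0 to 1 UGT genes lower and 0 to 1 GST genes lower. Ugt2b5 passed without knockout array 1, and Ugt2b35 without wild-type array 3 or knockout array 2. The intensity trend with robust variances put 2 UGT genes past the threshold, the second being Ugt2b5. Without the dimmest 50% of probe sets 16 members were higher and 3 lower, by construction over fewer members. With the replicate number as a block, 18 members were higher and 4 lower. Samples of the same number shared little of their deviations (r from -0.0015 to 0.0589 over genes). Knockout arrays 1, 3 and 4 correlated best with the wild-type array of their own number, and knockout array 2 with wild-type array 4 (r = 0.0406). Correlations this weak cannot tell whether the numbers pair the samples. Over all genes the block gave 1890 higher and 1827 lower, against 2314 and 2312 without it. Median centring moved the split of all genes to 2454 higher and 1977 lower. No value past the threshold changed sign among the members. Gclc turned to 0.0005 with quantile normalization, 0.0093 with median centring and 0.0088 less its neighbours, Nfe2l2 to 0.0159 with median centring, and Keap1 to 0.022 when its probe sets were averaged. With an array left out, Gclc ran from -0.0194 to 0.0012, Nfe2l2 from -0.0186 to 0.0167, Papss2 from -0.0742 to 0.0226, Ugt2b1 from -0.3225 to 0.0253 and Ugt2b36 from -0.0072 to 0.2249. Of the 25 members that passed in no setting, 14 changed sign in at least 1. Arsb rests on its brightest probe set, at 0.47 against 0.16 with the mean. The causes of these shifts were not tested.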
